A study of Rattus norvegicus with 12 samples.

Results

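Cells of the kidney's inner medullary collecting duct (IMCD) were compared 24 h after the medium around them was made less concentrated. The comparison used 6 of the 12 samples of the series, chosen by the time and osmolality in their titles: 3 samples moved to 300 mOsm/kg, near the osmolality of plasma, and 3 left at 640 mOsm/kg. All were primary cultures from kidneys of male SD rats aged 7 weeks, grown for 4 days at 640 mOsm/kg before the medium was changed or kept, and total RNA of each was measured on 1 Affymetrix rat gene array. None of the samples used here was taken before the change, so a gene said to rise or fall was higher or lower at 300 than at 640 mOsm/kg at the same 24 h. Whether replicates are different animals or cultures is not stated, so p-values reflect the spread among these samples alone, which may be technical. A short code in the sample descriptions gives another osmolality for the 300 mOsm/kg group, whereas the titles, the treatment field and the study design all give 300. The other 6 samples, taken after 48 h, entered the estimate of spread and a comparison of the times.

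The collecting duct crosses a medulla whose salt and urea content rises toward the tip, and its principal cells recover water through aquaporins under the control of vasopressin. Cells exposed to concentrated medium accumulate organic osmolytes such as sorbitol, inositol and taurine, through enzymes and transporters that are targets of the tonicity-responsive factor encoded by Nfat5. Concentrated medium is also known to slow the cell cycle of renal medullary cells in culture.

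Expression is given as the log2 level of a gene relative to the median gene of its array, because the medians of the deposited arrays differed. Centring leaves the spread of values within an array as it is. The interquartile range was 3.92, 4.20 and 3.71 in replicates 1 to 3 at 640 mOsm/kg, and 3.70, 4.13 and 4.04 at 300. The median of the 14506 genes tested was 7.43, 7.57 and 6.90 on the deposited log2 scale in replicates 1, 2 and 3 at 640 mOsm/kg, and 6.89, 7.58 and 7.46 in those at 300. The arrays thus formed 3 sets across the osmolalities, 640 replicate 1 with 300 replicate 3, the replicates 2 with each other, and 640 replicate 3 with 300 replicate 1. Across genes, which are not independent replicates, the deviations of the arrays from their group means correlated at 0.58, 0.84 and 0.83 within these sets. The sources used here do not give what the sets stand for, and the changes were also tested with the sets as a block. The 48 h arrays, paired by the same replicate numbers, had correlations of 0.63, 0.80 and 0.78. Because the sets were read from the 24 h arrays being tested, the block lowers the residual spread and its p-values may be too small. Of 16 markers of collecting duct principal cells, 11 lay above the array median on all 6 arrays, against 0 of 13 for the proximal tubule, 0 of 7 for urothelium, 1 of 15 for macrophages, 2 of 14 for intercalated cells, 2 of 13 for endothelium, 4 of 11 for the thick and thin limbs and 5 of 14 for fibroblasts. The list of the labelled cell type thus had the most members above the median.

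**Figure D1:**
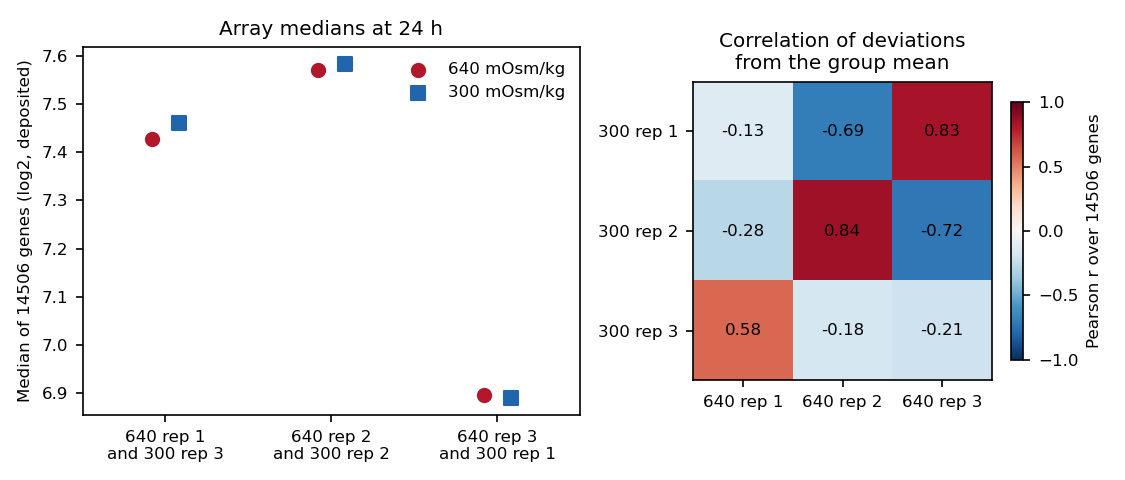
Left, median deposited log2 value of 14506 genes on each of the 6 arrays at 24 h, red circles for 640 and blue squares for 300 mOsm/kg, grouped by set; right, Pearson correlation over the genes between the deviations of each 300 array (rows) and each 640 array (columns) from its group mean. Both arrays of 1 set had medians near 6.9 while the other 4 lay between 7.43 and 7.58, and the 3 correlations within sets were 0.58, 0.84 and 0.83.

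Limma called 95 of 14506 genes (0.655%) at an adjusted p under 0.05, of which 40 rose (0.276%) and 55 fell (0.379%), and 56 of the 95 differed by at least 2-fold. In each of the 95 the arrays of the groups did not overlap, which was so for 1242 of all genes (8.56%). Without centring, limma called 13 genes, with 2 rises and 11 falls, so that the share of rises was 15.4% against 42.1% on centred arrays. Centred arrays without 640 replicate 1 and 300 replicate 3 also gave 13 calls, with the same share of 15.4%. With the sets as a block all 95 calls were kept and 121 were added, giving 216 (1.49%), 99 that rose (0.682%) and 117 that fell (0.807%). As the sets came from the same values, this is not independent support for the calls. Single arrays mattered: 26 genes were called without 300 replicate 3, 32 without 640 replicate 1, 40 without 640 replicate 3, 55 without 300 replicate 2, 72 without 300 replicate 1 and 75 without 640 replicate 2. No gene of the 95 changed sign in any of these fits, which was fixed in advance because their groups did not overlap. The calls of 21 genes, 8 that rose and 13 that fell, were kept without each of the 6 arrays in turn, and those of 13 in none of the 6 fits. For most other calls named the highest adjusted p over the 6 fits is given, with the array left out.

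**Figure D2:**
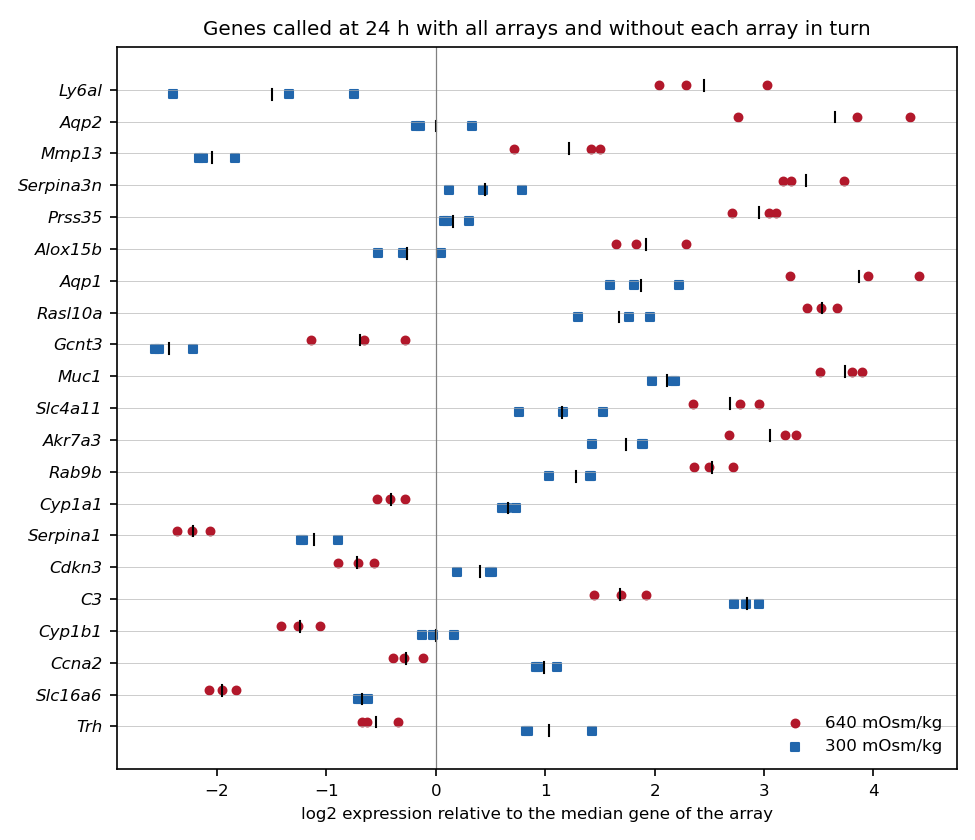
Centred log2 expression (relative to the median gene of the array, grey line at zero) of the 21 genes called with all arrays and also without each array in turn, 1 point per array, red circles 640 and blue squares 300 mOsm/kg, with a black tick at each group mean of 3. The 13 genes at the top were lower and the 8 at the bottom were higher at 300, with no overlap between groups.

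The water channels Aqp2 and Aqp1, the vasopressin receptor Avpr2 and the urea transporter Slc14a1 fell. Aqp2, the vasopressin-regulated water channel of principal cells, lay at 4.34, 2.76 and 3.85 in replicates 1 to 3 at 640 mOsm/kg and at 0.33, -0.18 and -0.14 at 300. All 3 arrays at 640 were far above all 3 at 300, a 12.5-fold difference (log2 change -3.65 ± 0.33 SE, adjusted p = 5.61e-05). Aqp1, a water channel best known from the proximal tubule and the thin descending limb, was at 4.41, 3.23 and 3.95 at 640 against 1.81, 1.59 and 2.23 at 300, and was 3.97-fold lower (adjusted p = 0.00198). Both calls were kept without each array in turn. Avpr2, the vasopressin receptor of the collecting duct, fell from 1.49, 0.43 and 1.13 to -0.11, -0.27 and -0.14 (log2 change -1.19 ± 0.23 SE, adjusted p = 0.0276), with the 300 arrays close together and the 640 arrays wide apart. Its call was kept in 1 of the 6 fits that each left out 1 array, with the highest adjusted p, 0.160, without 640 replicate 1. The urea transporter Slc14a1 was at -0.27, -0.87 and -0.45 at 640 and at -1.29, -1.72 and -1.85 at 300 (adjusted p = 0.0231, and 0.148 without 640 replicate 1). Slc14a2, the urea transporter that vasopressin regulates in the terminal collecting duct, had 3.25, 2.74 and 2.07 at 640 and 0.55, 1.80 and 1.69 at 300, without overlap. Its change of -1.34 ± 0.32 SE passed only with the sets as a block (adjusted p = 0.00216, against 0.0842 without the block). Aqp3, the water channel of the basolateral side, changed by -1.01 ± 0.26 SE and passed neither test (adjusted p = 0.118 and 0.0806).

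In the list of 25 vasopressin response and principal cell genes, 23 were lower at 300 and 2 were higher, with a median log2 change of -0.39 against -0.04 over all genes. Aqp2, Avpr2 and Slc14a1 fell and 0 rose. With the sets as a block 5 fell, the added ones being Slc14a2 and Tsc22d3, a glucocorticoid-induced gene. The epithelial sodium channel subunits Scnn1b and Scnn1g, which with Scnn1a form the sodium entry pathway of principal cells, changed by -0.01 and -0.04, and Scnn1a by -0.41, none of them called. Over the 16 principal cell markers, of which Aqp2 and Avpr2 fell and 0 rose, the mean level was 2.51 to 2.79 on the 640 arrays and 2.04 to 2.27 on the 300 arrays. These means include the large fall of Aqp2, and the median change of the 16 was -0.29, with 13 lower and 3 higher. In bulk samples fewer cells of a type and less RNA per cell cannot be told apart.

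Most markers of the thick ascending and thin limbs, like Aqp1, were lower at 300. Of 11 measured, 10 were lower at 300 (90.9%, against 59.1% of all genes), with a median log2 change of -0.42. Aqp1 alone was called (4 had an unadjusted p under 0.05), and with the block Slc14a2 and Slc12a1 were too. Slc12a1, the salt cotransporter of the thick ascending limb, was at -0.38, -1.12 and -0.46 at 640 and at -1.58, -1.82 and -1.37 at 300 (adjusted p = 0.0114 with the block and 0.0704 without). The mean level of the 11 markers was -0.24 to 0.11 at 640 and -0.70 to -0.58 at 300. These means include Aqp1 itself and Slc14a2, which also stands in the list of vasopressin response and principal cell genes. Umod, which defines the thick ascending limb, lay between -3.13 and -1.98 on the 6 arrays and changed by 0.05. The part of limb cells in the fall of Aqp1 was not tested.

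Of the organic osmolyte genes Akr1b1 fell. Akr1b1, aldose reductase, which makes sorbitol, was at 5.65, 5.25 and 6.10 at 640 and at 4.90, 3.93 and 4.64 at 300, a 2.26-fold difference without overlap (adjusted p = 0.0495). Without 640 replicate 3 its adjusted p was 0.221, and with the sets as a block it was 0.00231. The inositol transporter Slc5a3 was at 2.47, 0.89 and 2.77 against 0.65, -0.71 and 0.33. Replicate 2 was the lowest array of each group, and the change of -1.96 ± 0.43 SE passed only with the block (adjusted p = 0.00155, against 0.0552). The taurine transporter Slc6a6 changed by -0.71 ± 0.22 SE (adjusted p = 0.322, and 0.0614 with the block). Nfat5 itself lay at 2.86, 2.48 and 3.03 at 640 and at 2.81, 2.27 and 2.62 at 300, overlapping, with a change of -0.22 ± 0.20 SE. In the list of 16 osmolyte genes 12 were lower (75%, against 59.1% of all genes), 6 did not overlap (37.5%, against 8.56%) and 5 had an unadjusted p under 0.05. Akr1b1 fell and 0 rose (median -0.20).

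Among 19 heat shock chaperones measured, Hspa2 fell and 0 rose. Of these, 9 were lower and 10 higher at 300, with a median log2 change of 0.01. Hspa2, an Hsp70 family member, was at 2.12, 1.81 and 2.28 at 640 and at 1.53, 0.79 and 1.11 at 300 (log2 change -0.93 ± 0.19 SE, adjusted p = 0.0448, and 0.207 without 640 replicate 1). Hspa4l, the Hsp110 family member known as osmotic stress protein, was at 1.88, 1.56 and 2.03 against 0.94, 0.82 and 1.12, and its fall passed with the block alone (adjusted p = 0.0278, against 0.0648). The most common chaperones of the cytosol, Hspa8, Hsp90aa1 and Hsp90ab1, changed by 0.04, 0.07 and -0.01. None of those 3 was called.

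Ly6al, Lypd2, Muc1 and Gcnt3, which belong to the cell surface and its mucus layer, fell. Ly6al, of the Ly6 family of membrane-anchored surface proteins, was at 3.03, 2.29 and 2.04 at 640 and at -2.40, -0.75 and -1.34 at 300, the largest fall of all genes tested (15.5-fold, log2 change -3.95 ± 0.41 SE, adjusted p = 0.000217). Lypd2, of the same family, went from 0.52, 0.59 and 0.15 to -1.52, -1.43 and -1.68 (adjusted p = 0.00921). The membrane mucin Muc1 was at 3.90, 3.51 and 3.81 against 1.98, 2.17 and 2.18, a 3.09-fold fall (adjusted p = 0.000129). Gcnt3, a glycosyltransferase that branches the sugar chains of mucins, was at -0.29, -1.14 and -0.65 against -2.56, -2.53 and -2.22 (adjusted p = 0.000531). These 4 were all the calls among 17 mucin and Ly6 genes, whose median change was -0.12. Of the 17, 12 were lower at 300 (70.6%, against 59.1% of all genes), 7 did not overlap between the groups (41.2%, against 8.56%) and 7 had an unadjusted p under 0.05. Lypd2 lost its call without 300 replicate 3 (adjusted p = 0.0716) and without 640 replicate 1, and the other 3 kept theirs without each array. St3gal4, a sialyltransferase, was at 0.59, 0.58 and 1.07 at 640 and at -0.15, -0.40 and -0.67 at 300 (adjusted p = 0.0135, and 0.0933 without 300 replicate 3).

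Secreted proteases and their inhibitors changed in both directions. Mmp13, a collagenase, was at 1.42, 0.72 and 1.50 at 640 and at -2.13, -1.84 and -2.17 at 300, 9.56-fold lower (adjusted p = 2.85e-05). The serine protease inhibitor Serpina3n was at 3.73, 3.17 and 3.25 against 0.12, 0.79 and 0.43, 7.65-fold lower (adjusted p = 1.27e-05). Prss35, a serine protease-like secreted protein, was at 3.05, 2.71 and 3.11 against 0.07, 0.11 and 0.30, 6.95-fold lower (adjusted p = 1.45e-05). All 3 kept their calls without each array, and in each the gap between the groups was wider than the range within either. Serpina1, the inhibitor of neutrophil elastase and a relative of Serpina3n, went the other way, from -2.06, -2.37 and -2.23 at 640 to -1.23, -0.89 and -1.22 at 300 (2.15-fold higher, adjusted p = 0.00914). Its call, too, was kept without each array. Tmprss2, a membrane-bound serine protease chosen after its values were seen, fell (log2 change -1.09 ± 0.20 SE, adjusted p = 0.0201, and 0.134 without 640 replicate 1). Among 22 matrix proteases and inhibitors Mmp13 fell and 0 rose, and the median change was 0.10. The block added a fall of Timp3, a metalloproteinase inhibitor (-0.96), and a rise of Mmp7, matrilysin (1.05).

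Several transporters of ions, organic anions and lipids fell. Slc4a11, a relative of the bicarbonate transporters, was at 2.95, 2.78 and 2.35 at 640 and at 0.76, 1.52 and 1.17 at 300, 2.91-fold lower (adjusted p = 0.00419, kept without each array). Fxyd2, which regulates the sodium pump as its gamma subunit, was at 2.14, 1.83 and 2.16 against 0.79, -0.04 and 0.02 (log2 change -1.78 ± 0.30 SE, adjusted p = 0.0120). It lost its call without 300 replicate 3 (adjusted p = 0.0878) and without 640 replicate 1. Fxyd2 was the only call among 21 genes of the sodium pump, chloride transport and cell volume (median -0.09), in which the pump's Atp1b1 and Atp1b3 changed by -0.58 and -0.37. Slc45a3, of the sugar transporter-like family, was at 1.84, 1.42 and 1.65 against 0.27, 0.32 and 0.47 (adjusted p = 0.00914, and 0.0697 without 640 replicate 1). Abcc4, an exporter of cyclic nucleotides and prostaglandins, was at 1.90, 1.67 and 2.10 against 1.03, 0.73 and 0.93 (adjusted p = 0.0214, and 0.104 without 640 replicate 1). Other called transporters, chosen after their values were seen, were the exporter Abcc5 (2-fold lower), the sterol exporter Abcg1 (-0.79), the thyroid hormone and prostaglandin carrier Slco4a1 (-0.78) and the calcium channel Cacna1g (-0.97). None of these 4 kept its call in more than 2 of the 6 fits without 1 array.

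Some transporters rose instead. Slc16a6, of the monocarboxylate transporter family, went from -2.07, -1.96 and -1.83 at 640 to -0.71, -0.69 and -0.62 at 300, a 2.42-fold rise kept without each array (adjusted p = 0.000557). Slc7a11, the cystine-glutamate exchanger that feeds glutathione synthesis, went from 0.52, 0.59 and 0.51 to 1.29, 1.75 and 1.55 (log2 change 0.99 ± 0.20 SE, adjusted p = 0.0326, and 0.148 without 640 replicate 1). It was the only call among 21 amino acid transporters (median -0.01) and the only one among 27 Nrf2 targets and glutathione genes (median 0.09). The glutathione transferase Gsta1 rose too, from -1.39, -1.73 and -1.51 to -0.61, -0.72 and 0.18 (adjusted p = 0.0276). Without 300 replicate 3, its highest array, the adjusted p was 0.124.

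Cyp1b1 and Cyp1a1, cytochromes P450 induced through the aryl hydrocarbon receptor, rose. Cyp1b1, which oxidises steroids and polycyclic hydrocarbons, was at -1.42, -1.26 and -1.06 at 640 and at 0.17, -0.13 and -0.03 at 300 (log2 change 1.25 ± 0.16 SE, adjusted p = 0.00116). Cyp1a1, of the same family, was at -0.54, -0.28 and -0.42 against 0.61, 0.74 and 0.64 (1.08 ± 0.16 SE, adjusted p = 0.00655). Both were kept without each array in turn. The other 6 of 8 genes of that list (median 0.11) were not called, the receptor Ahr changing by 0.23, its repressor Ahrr by -0.37 and Nqo1 by 0.60. Another P450 fell: Cyp27b1, which activates vitamin D and was chosen after its values were seen, went from 0.05, 0.33 and -0.29 to -1.29, -0.76 and -1.24 (adjusted p = 0.0137, and 0.0933 without 300 replicate 3).

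Alox15b, Akr7a3, Pfkfb3, Tm7sf2 and Scd, enzymes of lipid, aldehyde and sugar metabolism, fell. Alox15b, a lipoxygenase that makes oxidised arachidonic acid, was at 2.29, 1.65 and 1.83 at 640 and at -0.53, 0.04 and -0.30 at 300, 4.55-fold lower (adjusted p = 0.000283). Akr7a3, an aldehyde reductase of aflatoxin metabolism, was at 2.68, 3.29 and 3.19 against 1.90, 1.89 and 1.43 (adjusted p = 0.00619). Both kept their calls without each array. Pfkfb3, which makes the activator of phosphofructokinase, was at 2.52, 2.17 and 2.29 against 1.13, 1.22 and 1.22 (log2 change -1.14 ± 0.17 SE, adjusted p = 0.00734, and 0.0530 without 640 replicate 1). It was the single call among 30 genes of glycolysis and hypoxia, of which 20 were lower (median -0.04). All 20 measured genes of cholesterol synthesis were lower at 300, by 0.07 to 0.86 on the log2 scale (median -0.21), against 59.1% of all genes lower. Tm7sf2, a sterol reductase, was the one that fell (-0.86 ± 0.16 SE, adjusted p = 0.0200, and 0.116 without 640 replicate 1), joined with the block by Insig1, which holds back the sterol-sensing factors (-0.66). The fatty acid desaturase Scd, at -0.14, -0.09 and -0.41 against -1.38, -1.20 and -0.81, also fell (adjusted p = 0.0342, and 0.176 without 640 replicate 1), alone among 22 fatty acid and lipid genes (median -0.08). Ptgs2, the inducible cyclooxygenase, changed by -0.81 and passed with the block only, and Abcc4 was the one fall among 19 genes of prostaglandin synthesis, transport and reception (median -0.16).

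Rasl10a, Rab9b, Igfbp5, Cdkl1 and Agfg2 also fell. Rasl10a, a Ras-like GTPase, was at 3.52, 3.39 and 3.67 at 640 and at 1.76, 1.96 and 1.30 at 300 (3.61-fold lower, adjusted p = 0.000229). Rab9b, a GTPase of endosomal traffic, was at 2.72, 2.50 and 2.36 against 1.03, 1.42 and 1.41 (2.37-fold lower, adjusted p = 0.00198). Both kept their calls without each array. Igfbp5, which binds insulin-like growth factors, was at 3.91, 3.42 and 3.42 against 1.75, 2.58 and 2.48 (adjusted p = 0.0135). It was the only call among 39 growth factors and receptors (median -0.06), and without 640 replicate 1 its adjusted p was 0.0954. Cdkl1, a kinase related to the cyclin-dependent kinases, was at 1.99, 1.55 and 1.49 against 0.10, 0.41 and 0.79 (adjusted p = 0.00990, and 0.0755 without 640 replicate 1). Agfg2, an ArfGAP-like protein, fell by 1.21 on the log2 scale. It kept its call in 3 of the 6 fits without 1 array, with the highest adjusted p, 0.109, without 640 replicate 1.

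Other receptors and ligands that fell, chosen after their values were seen, were the activin-binding follistatin gene Fst (1.99-fold lower), the TGF-beta co-receptor Tgfbr3 (-0.95), the leukaemia inhibitory factor receptor Lifr (-0.88) and the TNF family ligand Tnfsf15 (-0.84). These 4 kept their calls in 2, 3, 1 and 1 of the 6 fits without 1 array. Nos1, neuronal nitric oxide synthase, was at -0.68, -0.61 and -0.49 at 640 and at -1.35, -1.71 and -1.64 at 300 (adjusted p = 0.00914, and 0.0699 without 300 replicate 3). Bcl6, a transcriptional repressor, fell by 1.13 on the log2 scale, a call kept in 2 of the 6 fits. Esm1, a proteoglycan secreted mainly by endothelium, was at 2.35, 2.06 and 2.40 against 1.09, 1.00 and 1.43 (adjusted p = 0.0279, and 0.148 without 640 replicate 1). Of 13 endothelial markers 10 were lower at 300 (76.9%, against 59.1% of all genes), 0 were called by limma and 4 had an unadjusted p under 0.05. Their mean level was -0.33 to -0.16 at 640 and -0.65 to -0.46 at 300. With the block Emcn (-1.03) and Plvap (-0.72), both endothelial surface proteins, fell, whereas Cdh5, the cadherin that defines endothelium, lay between -1.20 and -0.58 on the 6 arrays and changed by -0.09. The part of endothelial cells in these falls was not tested.

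Genes of cell division rose, and of the lists used here that of mitosis held the most rises. Ccna2, cyclin A, which drives S phase and entry to mitosis, was at -0.29, -0.12 and -0.40 at 640 and at 0.91, 1.11 and 0.94 at 300 (log2 change 1.25 ± 0.18 SE, adjusted p = 0.00483). Cdkn3, a phosphatase of the cyclin-dependent kinases, was at -0.71, -0.89 and -0.56 against 0.50, 0.19 and 0.51 (1.12 ± 0.16 SE, adjusted p = 0.00483). Both kept their calls without each array. Top2a, the topoisomerase that untangles chromosomes, was at 1.32, 0.84 and 1.19 against 2.16, 2.13 and 2.26 (1.06 ± 0.17 SE, adjusted p = 0.00990), and its adjusted p was 0.0727 without 300 replicate 3. The checkpoint kinase Bub1 was at -0.63, -0.88 and -1.27 against 0.07, 0.18 and 0.73 (adjusted p = 0.0201, and 0.127 without 300 replicate 3). The kinetochore protein Nuf2 was at 0.15, 0.10 and 0.16 against 0.80, 1.41 and 1.33 (adjusted p = 0.0484, and 0.253 without 300 replicate 3). Nusap1, which binds spindle microtubules, was at -0.50, -0.40 and -0.55 against 0.20, 0.65 and 0.45 (adjusted p = 0.0192, and 0.0966 without 640 replicate 1).

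All 35 measured mitosis genes were higher at 300 mOsm/kg, by 0.26 to 1.25 (median 0.74, against -0.04 over all 14506 genes, of which 40.9% were higher). Of these, 9 rose and 0 fell, against 0.276% and 0.379% of all genes. The remaining rises beside Ccna2, Bub1, Top2a, Nuf2 and Nusap1 were the kinase Aurkb (0.96) and the kinesins Kif4a (0.90), Kif20b (0.88) and Kif20a (0.74). The 3 kinesins were called in 0 and Aurkb in 2 of the 6 fits without 1 array. In 26 of the 35 (74.3%) the groups did not overlap, against 8.56% of all genes. With the sets as a block 17 rose, against 0.682% of all genes. Among the 17 were Ttk (1.10), Ccnb1, cyclin B (1.06), Melk (0.92), Spc25 (0.90), Kif11 (0.89), Ndc80 (0.79), Cdc20 (0.72) and Prc1 (0.68). The smallest changes of the list were those of Cdca8, Ube2c and Smc2, at 0.26, 0.27 and 0.27. After 48 h the same 35 genes had a median change of 0.40, 34 were higher, 0 were called by limma and 15 had an unadjusted p under 0.05. The change was the larger one at 24 h in all 35, but 0 of them passed limma's test of the difference between times (4 had an unadjusted p under 0.05).

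**Figure D3:**
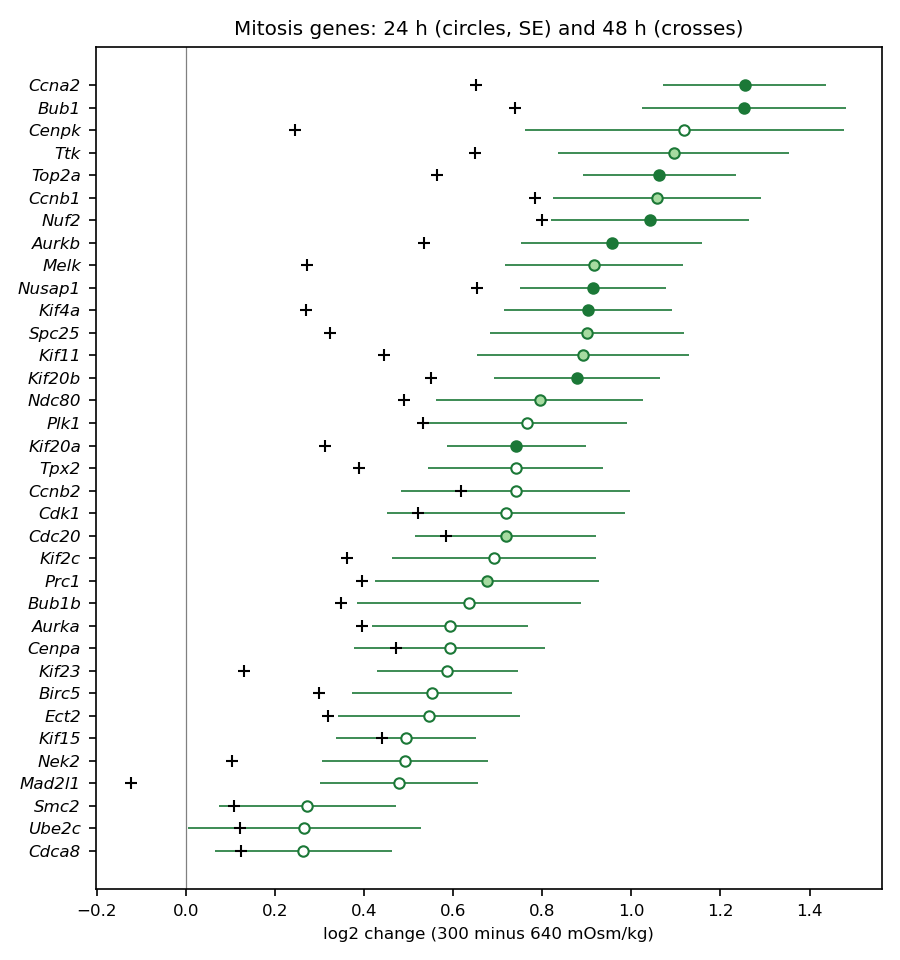
Log2 change (300 minus 640 mOsm/kg) of 35 mitosis genes at 24 h, circles with bars of 1 SE, and at 48 h, crosses. Dark circles were called in the fit without the block (9 genes), light green ones only with the sets as a block (8 more), open ones in neither, and every circle lies to the right of zero and of its cross.

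Genes of S phase and DNA replication had a lower median change than those of mitosis. Of 36, 32 were higher at 300, with a median change of 0.33, and limma called 0, with 8 at an unadjusted p under 0.05. With the block Uhrf1, which keeps DNA methylation through replication (0.73), and the primase subunit Prim1 (0.60) rose. Tyms, thymidylate synthase, had the largest change of the list, from 1.02, 1.05 and 1.18 at 640 to 2.07, 1.61 and 1.86 at 300, without overlap (adjusted p = 0.115, and 0.0553 with the block). Chromatin proteins outside the lists rose beside them. The linker histones H1f5 and H1f1 went from 0.98, 1.78 and 1.09 to 2.53, 2.96 and 2.60 and from 1.75, 1.84 and 1.81 to 3.06, 3.11 and 2.87 (adjusted p = 0.0192 and 0.0329). Histone genes resemble each other, so the probes of one may read others. Hmgn2, a nucleosome-binding protein, went from 3.17, 2.81 and 2.76 to 4.06, 3.77 and 4.20 (adjusted p = 0.00914, and 0.0716 without 300 replicate 3). H1f5 was kept in 2 and H1f1 in 0 of the 6 fits without 1 array, with highest adjusted p of 0.128 and 0.160, both without 640 replicate 1. Among 21 p53 targets and growth arrest genes (median 0.04) limma called 0, with 3 at an unadjusted p under 0.05. Cdkn1a, an inhibitor of the cycle, changed by 0.19, and with the block the inhibitor Cdkn1c fell (-0.65).

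Promoters of mitosis genes often carry a cell cycle homology region (CHR) beside CCAAT boxes, the sites of the DREAM and MuvB complexes and of NF-Y. Their letters were searched in RefSeq promoter windows of the GRCr8 assembly, 250 bases before to 50 after each gene's start, on both strands. The 4 mitosis genes that rose and whose window held both motifs are printed, 5′ to 3′ in the gene's direction, with the CHR core (TTTGAA, or TTCAAA on the other strand) and the CCAAT box (CCAAT or ATTGG) in capitals. The window of Hspa2 is added for the tonicity element (TonE) discussed after them. They lie at chr10:84473044-84473343 (minus strand) for Top2a, chr3:127057045-127057344 (plus) for Nusap1, chrX:69761633-69761932 (plus) for Kif4a, chr1:241840766-241841065 (plus) for Kif20b and chr6:100864192-100864491 (plus) for Hspa2.
Top2a: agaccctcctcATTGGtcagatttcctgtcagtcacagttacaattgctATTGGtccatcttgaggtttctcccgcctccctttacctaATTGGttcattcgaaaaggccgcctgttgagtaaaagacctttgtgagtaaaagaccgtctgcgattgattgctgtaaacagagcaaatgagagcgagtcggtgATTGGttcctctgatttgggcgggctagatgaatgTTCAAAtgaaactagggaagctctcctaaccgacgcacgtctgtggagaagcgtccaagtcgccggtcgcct
Nusap1: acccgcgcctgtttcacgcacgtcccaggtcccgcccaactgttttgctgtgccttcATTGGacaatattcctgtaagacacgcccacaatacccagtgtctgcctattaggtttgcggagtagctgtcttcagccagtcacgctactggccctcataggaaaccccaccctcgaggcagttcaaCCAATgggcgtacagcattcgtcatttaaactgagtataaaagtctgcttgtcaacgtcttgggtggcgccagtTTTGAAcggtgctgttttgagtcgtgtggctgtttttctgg
Kif4a: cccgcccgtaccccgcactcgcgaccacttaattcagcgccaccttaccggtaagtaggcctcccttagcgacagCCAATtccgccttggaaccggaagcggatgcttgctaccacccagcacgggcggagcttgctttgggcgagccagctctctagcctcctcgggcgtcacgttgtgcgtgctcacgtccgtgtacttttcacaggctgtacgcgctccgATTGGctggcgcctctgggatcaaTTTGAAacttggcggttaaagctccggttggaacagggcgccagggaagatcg
Kif20b: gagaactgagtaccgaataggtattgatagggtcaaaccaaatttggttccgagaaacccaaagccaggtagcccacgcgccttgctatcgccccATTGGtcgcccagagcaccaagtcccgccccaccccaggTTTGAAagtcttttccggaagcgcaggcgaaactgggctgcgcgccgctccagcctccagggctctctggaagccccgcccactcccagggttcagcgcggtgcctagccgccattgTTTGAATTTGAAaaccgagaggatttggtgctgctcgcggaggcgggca
Hspa2: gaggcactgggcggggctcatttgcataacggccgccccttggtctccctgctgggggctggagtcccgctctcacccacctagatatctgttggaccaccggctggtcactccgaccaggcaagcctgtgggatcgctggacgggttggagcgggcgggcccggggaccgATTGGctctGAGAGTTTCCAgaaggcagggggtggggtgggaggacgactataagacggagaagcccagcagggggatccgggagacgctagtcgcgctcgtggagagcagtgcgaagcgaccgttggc

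In these windows the first base of the start is 1 and the base before it is -1. Top2a had 4 CCAAT boxes, the last at -57, and its CHR core at -22. In Kif4a the core at -3 followed a CCAAT box at -27, and in Nusap1 the core at 10 followed one at -65. Kif20b had 3 cores, at -116, 2 and 8, the last pair end to end, and 1 box at -155. No motif overlapped another in the printed windows. Of the mitosis genes 31 of 35 had a window, and 22 of these (71%) held a CHR core, 22 (71%) a CCAAT box and 17 (54.8%) both. Over the 11950 genes tested that had a window the shares were 15.2%, 38.4% and 6.31%, and over all 27457 windows they were 18.1%, 37.7% and 7.25%. Among the S phase genes 2 of 30 (6.67%) held a CHR core and 18 (60%) a CCAAT box. The shares describe letters in a fixed window and do not show a bound site.

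The same search over all calls gave a CHR core in 11 of 29 windows of genes that rose (37.9%) and in 1 of 41 windows of genes that fell (2.44%), and a CCAAT box in 18 (62.1%) and 12 (29.3%). Mitosis genes were among those that rose. TonE, the site of the Nfat5 product, was searched by its consensus on both strands and found in 5 of the 41 windows of genes that fell (12.2%), those of Hspa2, Igfbp5, Plekhb1, Scd and Tm6sf1, in 1 of the 29 of genes that rose (3.45%), that of C3, and in 4.42% of the windows of genes tested. In Hspa2 it ran from -70, on the other strand, and no match was found in this window for Aqp2 or Slc5a3.

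Trh, Krt16, C3, Itgb3, Lrrn1, Capn6 and Klhl23 also rose. Trh, the precursor of thyrotropin-releasing hormone, rose from -0.63, -0.34 and -0.68 at 640 to 0.83, 1.43 and 0.84 at 300 (2.99-fold, adjusted p = 0.000896, kept without each array). The keratin Krt16, found in stressed and wounded epithelium, went from -1.95, -0.64 and -1.46 to -0.29, 0.87 and 0.13, with replicate 2 highest in each group (adjusted p = 0.0382, 0.00316 with the block and 0.242 without 640 replicate 1). The keratin Krt17 changed by 1.09 and passed with the block only, while the simple epithelial keratins Krt8, Krt18 and Krt19 changed by 0.24, 0.16 and -0.26 and were not called. Krt16 was the only call among 24 junction and keratin genes (median 0.03). C3, the central complement protein, went from 1.92, 1.44 and 1.69 to 2.84, 2.73 and 2.96 (2.23-fold, adjusted p = 0.00412, kept without each array). The integrin subunit Itgb3 went from 0.50, 0.35 and 0.42 to 1.77, 1.23 and 1.70 (adjusted p = 0.0167, and 0.104 without 300 replicate 3). Lrrn1, a leucine-rich repeat membrane protein, rose by 1.31, Capn6, a calpain without protease activity, by 1.11 and Klhl23, of the Kelch-like family, by 1.08 on the log2 scale. Lrrn1 was kept in 4, and Capn6 and Klhl23 in 1, of the 6 fits without 1 array, with highest adjusted p of 0.0975, 0.175 and 0.221, all without 300 replicate 3. Further rises chosen after their values were seen were the peptidase Dpp4 (1.00), the claudin Cldn9 (1.04), the matrix protein Fbln1 (0.98), the crosslinking enzyme Tgm1 (0.94) and the planar polarity protein Vangl1 (0.83). The first 4 of these kept their calls in 1 and Vangl1 in 0 of the 6 fits.

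**Figure D4:**
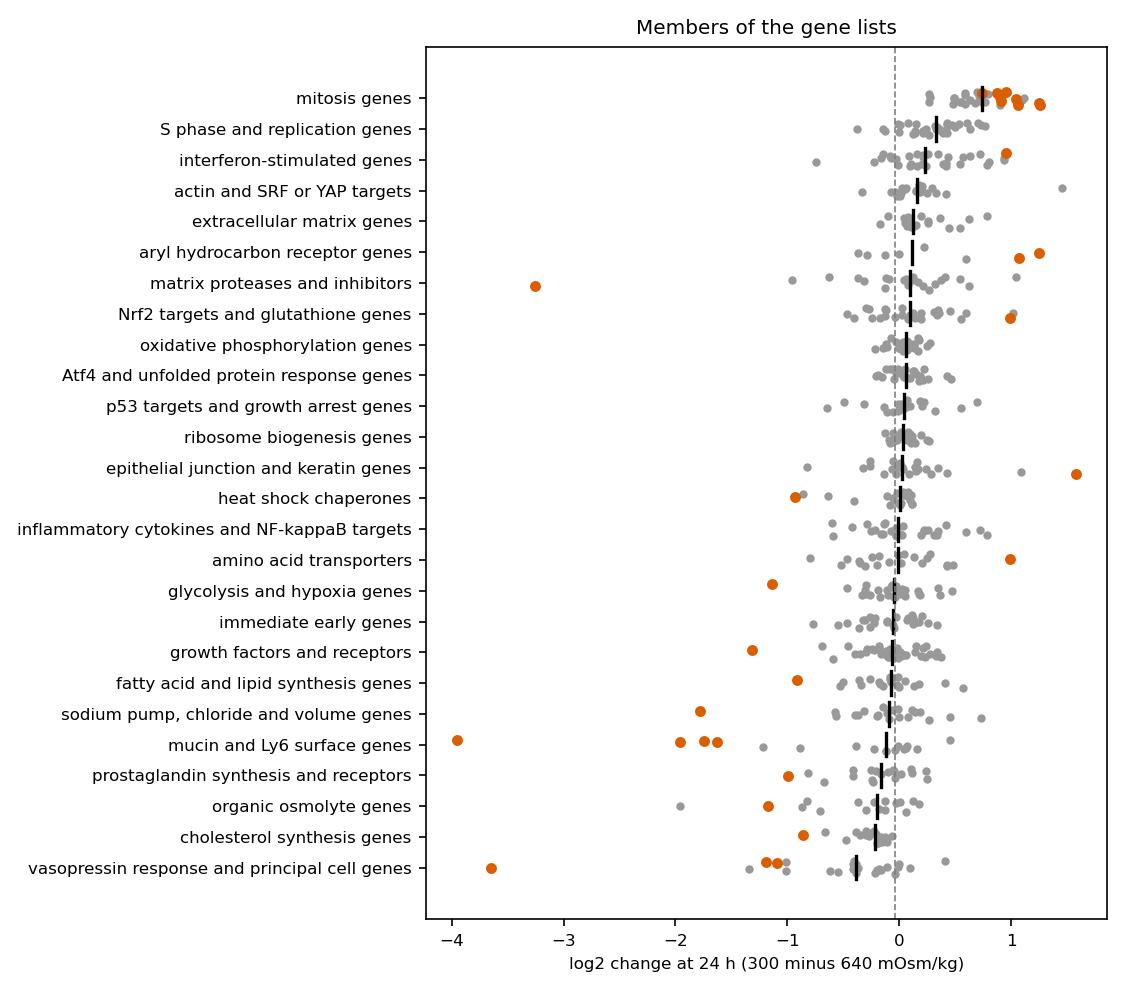
Log2 change at 24 h (300 minus 640 mOsm/kg) of each member of 26 gene lists, 1 point per gene, with a black tick at the list's median and a dashed line at the median of all genes, -0.04. Orange points were called; the mitosis list lies wholly above zero (median 0.74) and the cholesterol synthesis list wholly below (median -0.21).

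Limma called 0 genes in several other groups, each with 0 to 5 members at an unadjusted p under 0.05. They were 30 Atf4 and unfolded protein response genes (median 0.06, Ddit3 -0.19 and Hspa5 0.04), 25 genes of ribosome biogenesis (0.04), 26 of oxidative phosphorylation (0.06), 25 immediate early genes (-0.05), 28 inflammatory genes (-0.01), 21 of the extracellular matrix (0.12) and 24 actin, SRF or YAP targets (0.16). The block added calls in 4 of these lists: a fall of Fos (-0.77), a fall of Nfkbia (-0.60) beside a rise of Il33 (0.72), rises of Postn (0.63) and Col12a1 (0.79), and a rise of Lmcd1 (1.46). Across all 14506 genes 790 had an unadjusted p under 0.05. Members higher at 300 made up 90.5% of the matrix genes and 83.3% of the actin, SRF or YAP targets. In the rest of the groups named in this paragraph so far they made up 40% to 70%, against 40.9% of all genes. The markers of intercalated cells, proximal tubule, fibroblasts, macrophages and urothelium held 0 calls either, with 0 or 1 at an unadjusted p under 0.05 in each, and the block added 1, the proximal tubule gene Kap (-0.83). The share of these markers that was lower at 300 ran from 57.1% (fibroblasts) to 85.7% (urothelium), against 59.1% of all genes.

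Of the 121 genes that passed with the sets as a block alone, 59 rose and 62 fell. The largest rises were those of Lmcd1, a LIM domain protein, and Capsl, a calcium-binding protein, followed by Ttk, Krt17, Ccnb1, Mmp7, Gsta3, Gpcpd1, Mx2 and Melk, from 1.46 down to 0.92. Lmcd1 was at -0.58, 0.13 and -0.53 at 640 and at 0.89, 1.82 and 0.68 at 300, with replicate 2 highest in each group (adjusted p = 0.0229 with the block and 0.0733 without). The largest falls were those of Slc5a3 and Slc14a2, the calcium-binding S100a4 (-1.27), Otulinl (-1.13), Emcn, Timp3, Slc12a1, the fatty acid hydroxylase Fa2h (-0.93), the fatty acid-binding Fabp3 (-0.89) and the annexin Anxa8 (-0.87). S100a4 was at 3.43, 2.52 and 3.40 against 2.33, 1.27 and 1.93, with replicate 2 lowest in each group (adjusted p = 0.00646 with the block and 0.0719 without).

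Most calls recurred at 48 h. Of the 95 genes, 94 had the same sign after 48 h and 74 were called there in the same direction, 53 of the 55 falls and 21 of the 40 rises, while 269 of all genes (1.85%) were called at 48 h. The 2 falls not called at 48 h were Slc14a1 (-1.09 at 24 h and -0.62 at 48 h) and Scd (-0.91 and -0.43). The gene of opposite sign was Usp18, the protease that removes the ubiquitin-like ISG15 (0.95 at 24 h and -0.28 at 48 h).

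The difference between the change with osmolality at 48 h and that at 24 h was tested. It passed in 4 of 14506 genes (0.0276%), all of them interferon-stimulated genes. With an unadjusted p under 0.05 there were 131. Mx1, an antiviral GTPase, was at 2.29, 0.88 and 1.55 at 640 and at 0.60, 0.69 and 1.20 at 300 after 24 h, overlapping (log2 change -0.74 ± 0.28 SE). After 48 h its level was 3.07 ± 0.158 at 640 and -0.96 ± 0.247 at 300 (SD, n = 3), so that the change at 48 h was lower by 3.29 ± 0.40 SE (adjusted p = 0.00995). Ifit3, which binds foreign RNA complexes, was at -0.09, -0.97 and -0.75 at 640 and at 0.12, 0.28 and 0.20 at 300 after 24 h, a change of 0.81, against -1.58 at 48 h (adjusted p = 0.0101 for the difference). Oas1a, which makes the activator of RNase L, changed by 0.42 at 24 h and by -1.24 at 48 h (adjusted p = 0.0354), and the chemokine Cxcl10 by -0.07 and -2.66 (adjusted p = 0.0333). With the crossed sets of the 24 h arrays as a block the adjusted p was at most 0.0309 for these 4. Without 300 replicate 3 it was 0.0554 for both Mx1 and Ifit3, 0.0858 for Cxcl10 and 0.185 for Oas1a, and on uncentred arrays none passed, Mx1 coming nearest at 0.0825. Cxcl10 and Oas1a also lost their calls after cyclic loess (0.0631 and 0.0652) and with arrays centred over all probe sets (0.0996 for both), and without both replicates 2 at 24 h Mx1 alone of the 4 passed (0.0236).

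Of 32 interferon-stimulated genes measured, 24 were higher at 300 after 24 h and 10 after 48 h, with median changes of 0.23 and -0.06. At 24 h Usp18 alone was called, at -1.81, -1.79 and -1.40 at 640 against -0.68, -1.06 and -0.40 at 300 (adjusted p = 0.0484). It kept that call in 1 of the 6 fits without 1 array, and its highest adjusted p was 0.283, without 300 replicate 3. In 10 of the 32 genes the groups did not overlap (31.2%, against 8.56% of all genes). Mx2, at 1.97, 0.68 and 1.33 against 2.19, 2.15 and 2.45, and Ifit2 (0.79) rose with the block only. After 48 h 8 of the list were called lower and 1 higher. Rsad2, viperin, changed by 0.94 at 24 h and by -1.09 at 48 h, and Ifit1 by 0.21 and -1.93, but the difference passed for neither (adjusted p = 0.0723 for both).

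**Figure D5:**
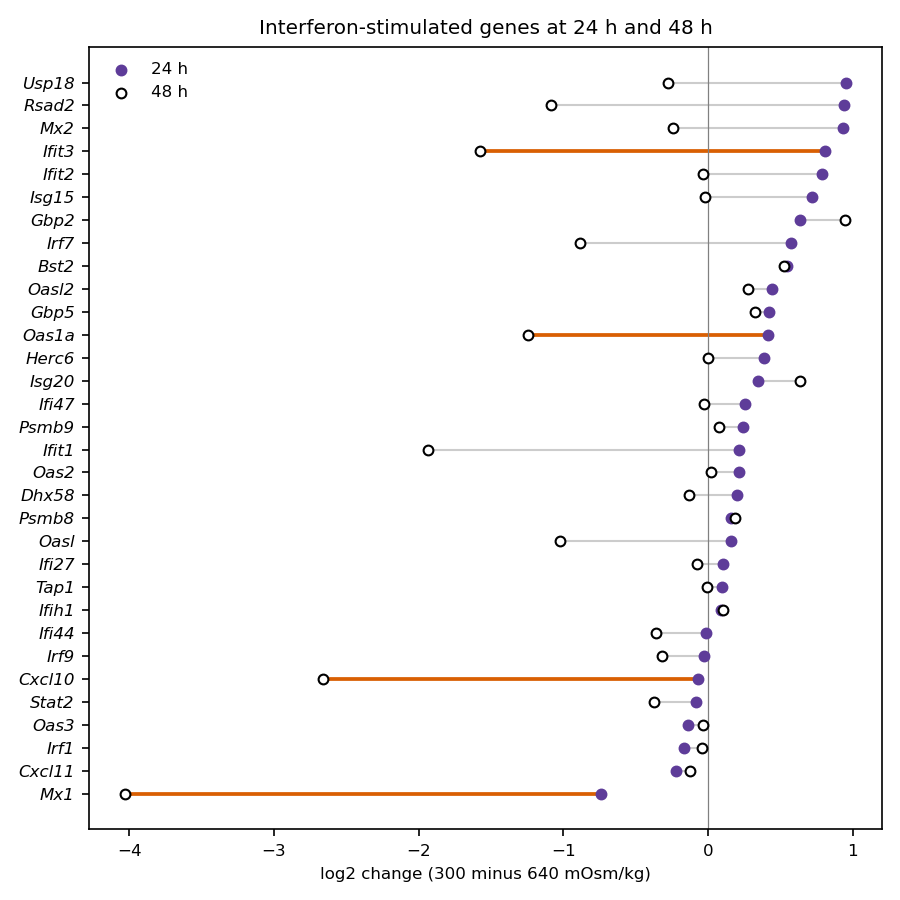
Log2 change (300 minus 640 mOsm/kg) of 32 interferon-stimulated genes at 24 h (filled circles) and 48 h (open circles), joined by a line per gene; thick orange lines mark the 4 genes whose change differed between the times. Mx1, Cxcl10, Ifit3 and Oas1a lie between -1.24 and -4.03 at 48 h, against -0.74 to 0.81 at 24 h.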

How the data were processed

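The deposited values are log2 expression of each probe set, made by the authors with RMA in Affymetrix Power Tools per the submitters' processing notes. The sources used here give no versions. Of 27596 probe sets, 15310 had 1 gene symbol in the platform's annotation, 323 had more than 1 and 11963 had none, and these were left unnamed. RefSeq identifiers matched for 15279. The brightest probe set of each gene was used, giving 14506 genes. Each array was centred on its median over these genes. Limma 3.58.1 in R 4.3.3 (lmFit, eBayes) was fitted to all 12 arrays with 1 mean per group (8 residual degrees of freedom), and with the crossed sets of the 24 h arrays as a block (6). A call is an adjusted p under 0.05 (Benjamini-Hochberg, over all genes), and errors of changes are moderated standard errors. Arrays hold no read depth, and 3 arrays per group limit the precision.

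Named were the 20 largest called rises and falls without overlap between groups, up to 4 called members per list, 9 water, urea and osmolyte genes, the 10 largest rises and falls called only with the block, and the genes differing between times. The rule, the members and the gene lists were chosen with earlier results of these data known. Other scalings, filters, blocks and left-out arrays were tried. One gene that the rule names is not reported here.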

Additional observations from a re-analysis of the deposited data

Results flagged for a closer look

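For 4 genes the change between 300 and 640 mOsm/kg differed between the times, by limma's contrast of the changes at 48 h and at 24 h. On the log2 scale the change at 48 h minus that at 24 h was -3.29 for Mx1, -2.59 for Cxcl10, -2.38 for Ifit3 and -1.66 for Oas1a (adjusted p = 0.00995, 0.0333, 0.0101 and 0.0354).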

How the results depend on the processing

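The 95 calls kept their sign under every setting tried, and 3 arrays per group limit what can be called. On the centred values the sign could not change when arrays were left out or weighted, as the groups did not overlap. A block could not change it either, as it leaves the changes as they are. On uncentred arrays 13 genes were called (2 rose, 11 fell). With the crossed sets of the 24 h arrays as a block 216 were called (99 and 117), with the 24 h arrays alone 10 (1 and 9), and with those arrays alone and the block 704 (307 and 397). Array weights, of which 640 replicate 1 and 300 replicate 3 had the highest, gave 1595 (532 and 1063). Taking every probe set gave 26 rises. Leaving out 1 array at a time gave 26 to 75 calls, 8 to 30 rises and 18 to 51 falls. The set of low medians left out gave 17 (4 and 13). Further settings were added after seeing the data. These were leaving out 640 replicate 1 with 300 replicate 3, which gave 13 (2 and 11), leaving out both replicates 2, which gave 42 (14 and 28), the crossed block at both times, which gave 1343 (576 and 767), and quantile normalization with the crossed block, which gave 222 (109 and 113). All-probe-set centring, cyclic loess, quantile normalization, a trended fit, the dimmest 30% left out and the mean of probe sets gave 78 to 118.

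The replicate numbers matched the sets seen in the arrays for the replicates 2 alone. Deviations of arrays with the same number correlated at -0.13, 0.84 and -0.21, and the labels give no pairing. With the number as a block 108 genes were called, 82 of the 95 among them. The count of genes that differed between the times, 4, was 0 on uncentred arrays, 2 after quantile normalization, 5 with the crossed block, 0 to 4 without 1 array at 24 h and 0 without the set of low medians. Of the 4 genes, Cxcl10 and Oas1a lost that call after cyclic loess and all-probe-set centring, and only Mx1 kept it without both replicates 2. Of 1895 alternative values of 79 named genes, 301 lost a call, 170 gained one and 4 changed sign. These 4 were the near-zero change of Cxcl10, which ranged from -0.25 to 0.086 without 1 array (above zero without 300 replicate 1, 300 replicate 3 or 640 replicate 2) and 0.021 without the set of 640 replicate 1 and 300 replicate 3. The causes were not tested.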

Other observations

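Enzymes that stood in no list were also among the falls, and those given here were chosen after their values were seen. The mitochondrial arginase Arg2 was at 2.01, 2.55 and 1.93 at 640 mOsm/kg and at 0.93, 1.51 and 1.15 at 300 (log2 change -0.97 ± 0.21 SE, just inside the threshold). The mitochondrial carbonic anhydrase Car5b changed by -0.80 (adjusted p = 0.0491), the collagen hydroxylase P3h2 by -1.15 (0.0237) and the heparan sulfate sulfotransferase Hs3st1 by -0.95 (0.0135). Hs3st1 kept its call in 3, P3h2 in 2, Arg2 in 1 and Car5b in 0 of the 6 fits that each left out 1 array.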
